A study of Mus musculus with 22 samples.

Results

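The 7 genes described here encode proteins that move sodium, potassium and chloride across the membranes of brain cells. They are Atp1b1, Atp1b2 and Atp1b3, which encode beta subunits of the sodium-potassium ATPase, Fxyd1 and Fxyd7, which encode small membrane proteins that bind this pump, and Slc12a2 and Slc12a5, which encode chloride cotransporters. They were taken by gene symbol from 55385 gene identifiers in the index, with no cut on their levels but with earlier results of these data known. All 7 were among the 20524 genes that passed the filter on low counts. The catalytic alpha subunits of the pump were not analysed here.

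The sodium-potassium ATPase uses ATP to carry sodium out of and potassium into the cell, and restores both gradients after neurons fire. Its beta subunit brings the catalytic subunit to the membrane, and FXYD proteins tune its affinity for ions. NKCC1, the product of Slc12a2, carries chloride into the cell together with sodium and potassium. KCC2, the product of Slc12a5, carries chloride out together with potassium, and the balance of both sets whether GABA inhibits or excites a mature neuron.

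The study profiled mRNA bound to tagged ribosomes (RiboTag) in 6 cell types of the mouse brain, with 3 replicates each, all from 6-week-old mice of both sexes. Every group carried Rpl22 Fl/+, an allele that gives the ribosomal protein RPL22 an HA tag after Cre recombination, so no group was free of the allele. Dentate gyrus granule cells came from hippocampus with Rbp4-Cre, layer V cortical neurons from cortex with Rbp4-Cre, and cerebellar granule cells from cerebellum with Gabra6-Cre. Inhibitory interneurons came from hippocampus with Dlx6a-Cre, and each of their replicates pooled 2 mice. Astrocytes came from cortex with Aldh1-cre, as the labels spell a driver that the methods give as Aldh1l1-cre/ERT2. Microglia came from cortex with Tmem119-cre, and the methods describe both glial drivers as induced by tamoxifen. The same Rbp4-Cre line therefore stood for 2 cell types that differ by dissection, and the cell type behind each library rested on its driver. No library of the tissue before the pull-down was analysed here, so a low level in a cell type may hold RNA carried along from other cells. In such bulk samples fewer cells of a type and less RNA per cell cannot be told apart.

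The 18 libraries held between 38270477 and 71440915 estimated counts. Of 23 markers of the labelled types, 21 had every library of their own type above every other library. The exceptions were Bcl11b and Rbp4 of the layer V list. Levels are in TPM, a length-normalised share of all transcripts in a library. Bcl11b averaged 34.35 TPM in layer V neurons and 159.5 TPM in dentate gyrus granule cells. Rbp4 averaged 52.2 TPM in layer V neurons and 87.0 TPM in interneurons. Fezf2, the other gene of that list, averaged 85.5 TPM in layer V neurons and at most 20.5 TPM by mean elsewhere. Summed, the list averaged 205 TPM in dentate gyrus granule cells and 172 TPM in layer V neurons. Oligodendrocyte markers were highest in interneurons, where the 5 genes summed to 2642 to 2824 TPM, against 112 to 1087 TPM in the other types. Astrocyte replicate 1 stood apart in choroid plexus markers, whose 5 genes summed to 3680 TPM in it and to 7.45 and 14.4 TPM in the other astrocyte libraries. Microglia and interneurons were sequenced in batch 2 and the other types in batch 1, and 4 replicates of the batch 1 types were also sequenced in batch 2. Over 28 values of the 7 genes in these repeats, the batch 2 level differed from the batch 1 level by a median of 0.02 and at most 0.28 on the log2 scale, with 23 values under 0.1.

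Among the beta subunits, Atp1b1 was the neuronal gene, Atp1b2 was highest in astrocytes and in cerebellar granule cells, and Atp1b3 was the most abundant beta subunit mRNA of microglia. Levels below are in TPM, with the libraries of a type given in the order of replicates 1, 2 and 3. Folds and adjusted p-values are from edgeR on estimated counts with Benjamini-Hochberg adjustment over all 20524 genes, so a fold can differ from the ratio of 2 TPM means.

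Atp1b1 (chr1:164437109-164458355 in GRCm38, minus strand) encodes the beta 1 subunit. It was highest in interneurons, at 3172, 3343 and 3341 TPM, followed by dentate gyrus granule cells at 1637, 1866 and 1788 TPM and layer V neurons at 1599, 1533 and 1633 TPM. Cerebellar granule cells had 1384, 1356 and 1338 TPM, so that the means of the 4 neuron types spanned a 2.42-fold range. Astrocytes held 388, 394 and 365 TPM and microglia 113, 114 and 115 TPM. All 12 neuronal libraries lay above all 6 glial ones. Each of its 15 pairs of cell types differed by counts. The closest pair was dentate gyrus granule cells and layer V neurons, 1.11-fold lower in the former by counts although their TPM were higher (adjusted p = 0.0245 by edgeR). Nme7, on the other strand, overlaps Atp1b1, and reached at most 100.2 ± 9.0 TPM (SD, n = 3), in astrocytes. Whether the quantification used the strand of the reads was not given in the sources used here.

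Atp1b2 (chr11:69599736-69605942, minus strand) encodes the beta 2 subunit, first known as an adhesion molecule on glia. Astrocytes had 1859, 1746 and 1887 TPM, and cerebellar granule cells 1177, 1169 and 1169 TPM. The other neurons had 5.91% to 9.57% of the astrocyte mean. Dentate gyrus granule cells were at 170, 184 and 172 TPM, interneurons at 132, 153 and 143 TPM and layer V neurons at 110, 107 and 108 TPM. Microglia were lowest at 59.7, 55.7 and 62.0 TPM. Cerebellar granule cells thus stood with astrocytes and apart from the other neurons, 6.85-fold above dentate gyrus granule cells (adjusted p = 3.26e-17 by edgeR) and 1.89-fold below astrocytes (adjusted p = 4.62e-11). Layer V neurons and interneurons, neighbours in the order, did not differ by counts (log2 difference -0.11 ± 0.06, SE; adjusted p = 0.125 by edgeR), though their TPM ranges did not overlap. Astrocyte markers did not move with Atp1b2 in cerebellar granule cells: their levels there were 0.19% to 0.84% of those in astrocytes over 5 markers, against 64.0% for Atp1b2.

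Atp1b3 (chr9:96332655-96364442, minus strand) encodes the beta 3 subunit and had the narrowest range of the beta subunits. Microglia were highest at 217, 220 and 211 TPM, followed by cerebellar granule cells at 185, 193 and 194 TPM. Interneurons had 144, 151 and 145 TPM and astrocytes 147, 145 and 130 TPM, ranges that overlapped, although by counts interneurons were 1.29-fold lower (adjusted p = 1.08e-06 by edgeR). Layer V neurons had 54.5, 54.8 and 53.6 TPM and dentate gyrus granule cells 35.0, 34.6 and 41.0 TPM. Neuron types thus stood both next to the highest and at the bottom of the order.

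**Figure D1:**
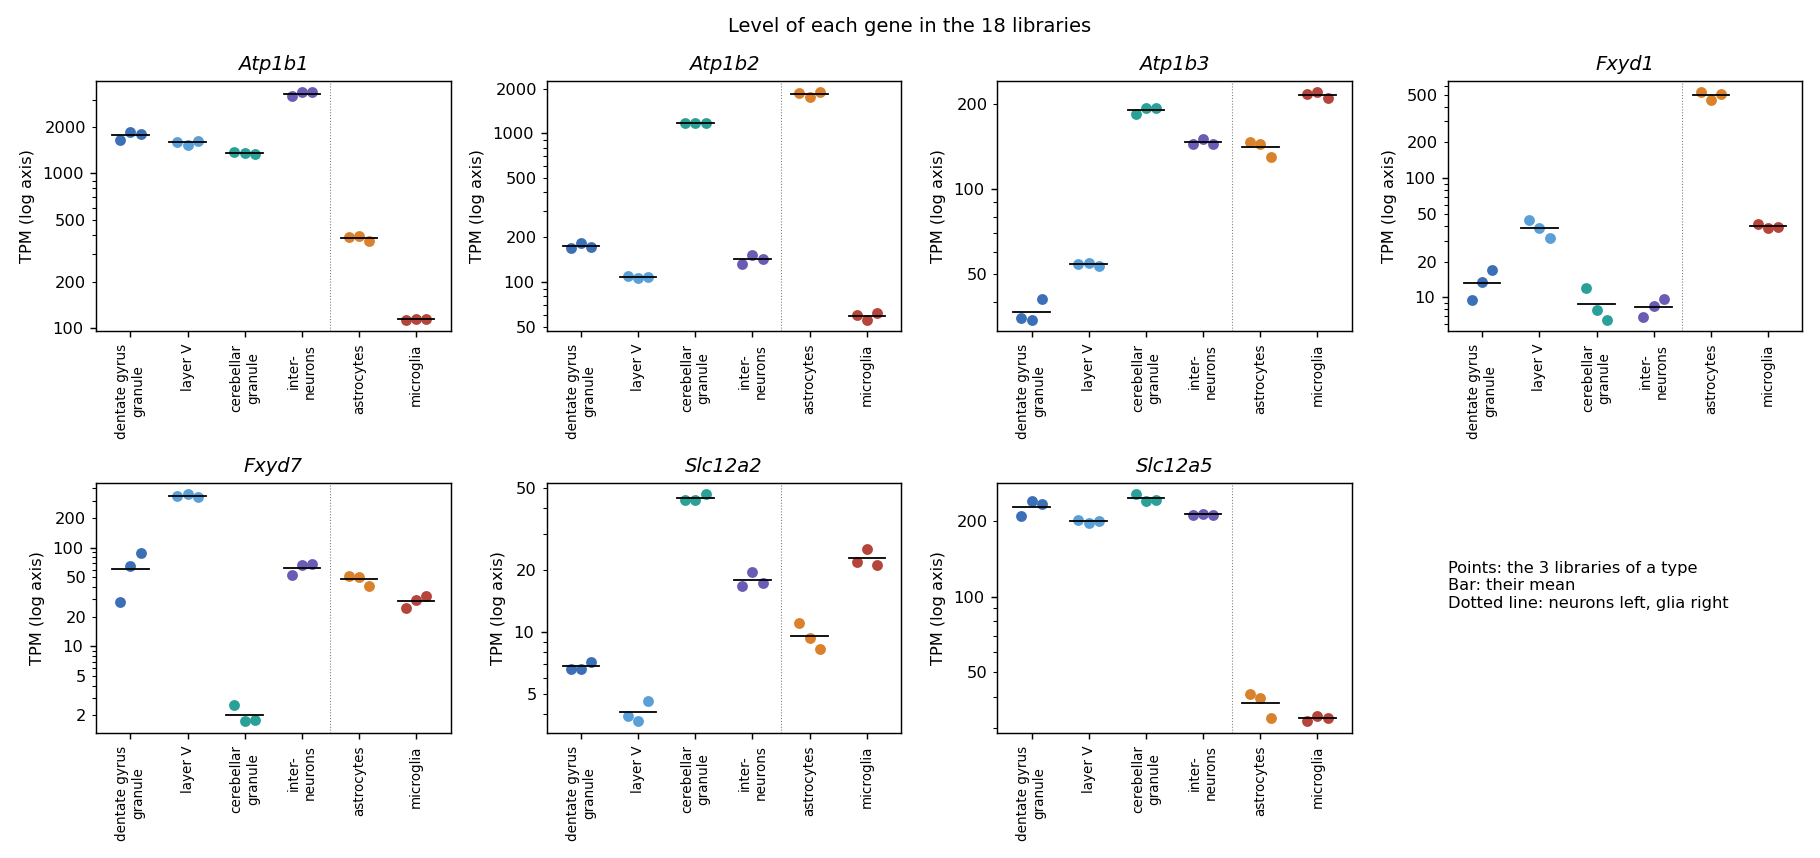
TPM on a log axis for each of the 7 genes in the 18 libraries, with 3 points and their mean (bar) for each cell type and neurons to the left of the dotted line. Atp1b1 and Slc12a5 separate neurons from glia, Fxyd1 and Atp1b2 peak in astrocytes, Fxyd7 peaks in layer V neurons at 325 to 349 TPM, and Slc12a2 peaks in cerebellar granule cells at 43.9 to 46.8 TPM.

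The make-up of the beta subunit pool, taken as the share of the summed TPM of the 3 genes, fell into 4 kinds. In dentate gyrus granule cells, layer V neurons and interneurons Atp1b1 made up 89.3% ± 0.3, 90.7% ± 0.3 and 91.9% ± 0.2 (SD, n = 3 each). In cerebellar granule cells Atp1b1 and Atp1b2 stood near parity, at 49.9% ± 0.4 and 43.1% ± 0.2. Astrocytes had 77.8% ± 1.4 Atp1b2 and 16.3% ± 1.0 Atp1b1. Microglia had 55.5% ± 1.0 Atp1b3 and 29.3% ± 0.3 Atp1b1. The sum itself was 3575 ± 110 TPM in interneurons and 390 ± 1.2 TPM in microglia, with the other types at 1751 to 2722 TPM.

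**Figure D2:**
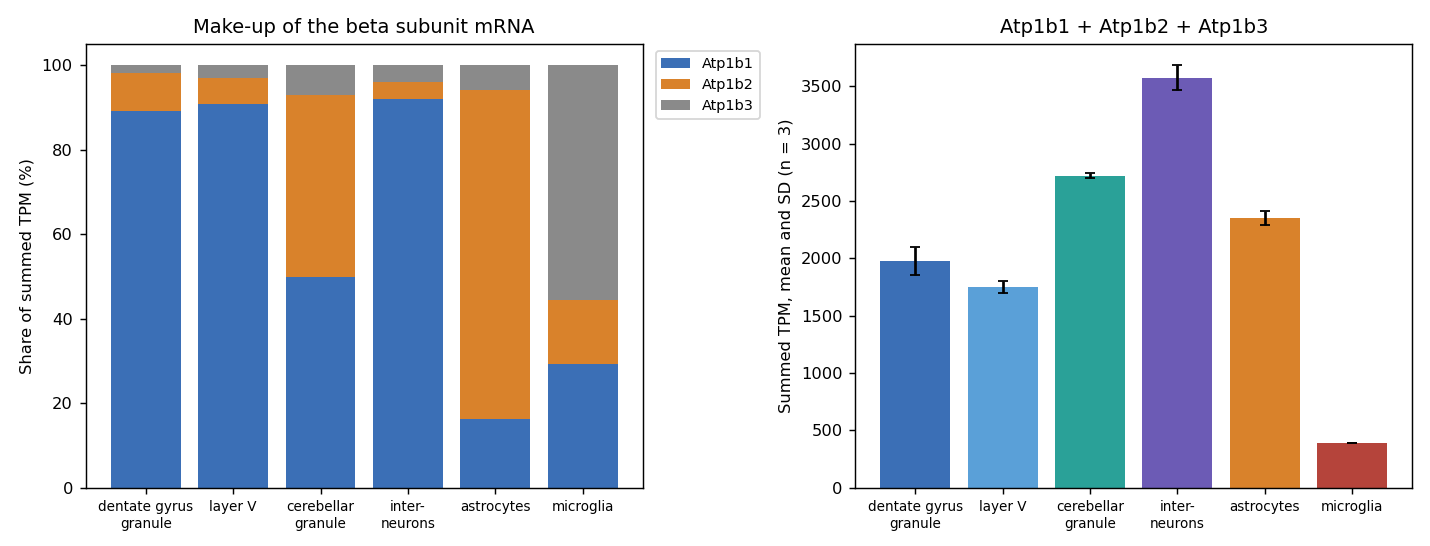
Left, mean share of Atp1b1, Atp1b2 and Atp1b3 in their summed TPM (%) for each cell type; right, the summed TPM with SD over 3 libraries. Atp1b1 makes up 89.3% to 91.9% of the pool in 3 neuron types and 49.9% in cerebellar granule cells, and the microglial pool is the smallest and mostly Atp1b3.

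The FXYD genes marked single types more narrowly: Fxyd1 was an astrocyte gene and Fxyd7 a layer V gene in these libraries. They are neighbours on the minus strand of chromosome 7, where 210 bases separate Fxyd7 (chr7:31042513-31051467) from Fxyd1 (chr7:31051678-31057199).

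Fxyd1 encodes phospholemman, a regulator of the pump that is a target of protein kinases in heart and muscle. Astrocytes held 526, 453 and 513 TPM. The next types were microglia at 41.7, 38.0 and 39.3 TPM and layer V neurons at 44.2, 38.3 and 31.3 TPM. Dentate gyrus granule cells had 9.6, 13.4 and 16.9 TPM, cerebellar granule cells 12.1, 7.84 and 6.5 TPM and interneurons 6.91, 8.55 and 9.68 TPM, 3 ranges that overlapped and did not differ in pairs (adjusted p between 0.159 and 0.685 by edgeR). Over the dentate gyrus libraries, replicates 1 to 3, summed choroid plexus markers were at 106, 185 and 244 TPM, in the same order as Fxyd1. Summed oligodendrocyte markers, at 252, 274 and 355 TPM, rose in that order too, as did those of microglia and neurons. Those of astrocytes, endothelial cells and mural cells did not. The part of any of these was not tested. Counts in these low types were few, down to 42 estimated counts in a library. Against astrocytes, cerebellar granule cells were 106-fold lower and microglia 17.2-fold lower. Layer V neurons and microglia overlapped in TPM but differed by counts, where layer V neurons were 1.88-fold lower (adjusted p = 3.43e-04 by edgeR). The transcripts behind these levels, described below, differed in length.

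Fxyd7 encodes a FXYD protein known from neurons of the brain. Layer V neurons had 338, 349 and 325 TPM. Interneurons had 52.6, 66.8 and 69.1 TPM, astrocytes 52.2, 50.9 and 40.8 TPM, and microglia 24.8, 29.5 and 32.6 TPM. Cerebellar granule cells were lowest at 2.57, 1.74 and 1.80 TPM, from 25 estimated counts in the lowest library, and were 172-fold below layer V neurons by counts. Dentate gyrus granule cells varied most, with 28.2, 64.7 and 87.9 TPM, so that their range covered those of interneurons and astrocytes. These 3 types did not differ in pairs (adjusted p between 0.799 and 0.914 by edgeR). Over the dentate gyrus libraries the summed choroid plexus, oligodendrocyte and microglial markers moved with Fxyd7 too. Summed neuronal markers, at 3828, 4271 and 4541 TPM, did so as well. The part of any of these in the result was not tested.

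The chloride cotransporters differed in both order and range: Slc12a5 was high and even across neurons, while the mean of Slc12a2 varied 10.99-fold over the 6 types and was highest in cerebellar granule cells. Slc12a5 (chr2:164960802-164999731, plus strand) was at 256, 240 and 242 TPM in cerebellar granule cells. Dentate gyrus granule cells had 210, 240 and 234 TPM, interneurons 212, 214 and 212 TPM and layer V neurons 202, 196 and 201 TPM. Astrocytes had 41.0, 39.4 and 32.8 TPM and microglia 31.9, 33.5 and 33.0 TPM, ranges that overlapped although astrocytes were 1.56-fold higher by counts (adjusted p = 7.82e-10 by edgeR). Every neuronal library lay above every glial one, and the neuron types lay within a 1.23-fold range by mean. The spread among neurons was the narrowest of the 7 genes. Small differences within it still passed the test, such as 1.13-fold between cerebellar and dentate gyrus granule cells (adjusted p = 2.05e-03 by edgeR), while layer V neurons and interneurons did not differ by counts (log2 difference -0.01 ± 0.05, SE; adjusted p = 0.863), though their TPM ranges lay apart.

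Slc12a2, on chromosome 18, had 43.9, 44.0 and 46.8 TPM in cerebellar granule cells. Microglia followed at 21.99, 25.3 and 21.2 TPM and interneurons at 16.7, 19.7 and 17.3 TPM. Astrocytes had 11.1, 9.43 and 8.31 TPM, dentate gyrus granule cells 6.67, 6.66 and 7.18 TPM and layer V neurons 3.94, 3.70 and 4.62 TPM. No 2 types overlapped in TPM, as for Atp1b1 and Atp1b2, and the share of all genes with this trait was not counted. All 15 pairs differed, as for Atp1b1 and Atp1b3, where 60.7% to 85.5% of all genes were called in a pair. The closest pair was dentate gyrus granule cells over layer V neurons at 1.42-fold (adjusted p = 6.67e-05 by edgeR). Astrocyte replicate 1, the library with choroid plexus markers, was the highest of its 3 for Slc12a2. By TPM this library was also the highest for Atp1b3, Fxyd1, Fxyd7 and Slc12a5, but not for Atp1b1 and Atp1b2. In counts scaled by library size it was the highest for Slc12a2 but for none of the other genes. By that measure it was the lowest of its 3 for Atp1b3.

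The ratio of Slc12a5 to Slc12a2 mRNA within a library, which needs no scaling between libraries, was above 1 in all 18 libraries. Each gene was summed over its transcripts for this ratio. Of Slc12a5 TPM in microglia, 41.8% came from transcripts annotated as retained introns, described below. The main coding transcript alone, Slc12a5-201, was at 15.6, 17.7 and 15.97 TPM in microglia. Slc12a2 was higher in the same libraries, at 21.99, 25.3 and 21.2 TPM. Layer V neurons had 47.9 times as much Slc12a5 as Slc12a2 by the mean log2 ratio, dentate gyrus granule cells 32.9 times, interneurons 11.8 times and cerebellar granule cells 5.46 times. Astrocytes had 3.9 times and microglia 1.44 times. On the log2 scale the ratio was 4.16 ± 1.29 in 12 neuronal libraries and 1.24 ± 0.79 in 6 glial ones (SD), and the ranges, 2.37 to 5.69 and 0.40 to 2.05, did not overlap. An exact two-sided permutation test over the 18 libraries gave p = 1.08e-04, the smallest it can give, and p = 4.31e-04 after adjustment over the 4 quantities compared this way. It exchanges the libraries of a type as if independent, so it does not measure the spread between cell types. Over the means of the 6 cell types, with 4 neuronal and 2 glial, the exact test gave p = 0.133, which is the smallest that such a design allows.

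The other ratios did not part neurons from glia as fully, since cerebellar granule cells lay beside glial types. Log2 Atp1b1 over Atp1b2 was 2.99 ± 1.73 in neurons and -0.65 ± 1.76 in glia (SD; exact permutation p = 2.15e-03, adjusted 3.88e-03). Cerebellar granule cells, at 0.21 ± 0.02, lay below microglia, at 0.95 ± 0.08, and astrocytes were at -2.26 ± 0.11. Log2 Fxyd7 over Fxyd1 was 1.52 ± 2.20 in neurons and -1.92 ± 1.61 in glia (exact permutation p = 6.57e-03, also after adjustment), with cerebellar granule cells at -2.03 ± 0.21. The Atp1b3 share of the beta pool was 4.02% ± 1.99 in neurons and 30.7% ± 27.1 in glia (exact permutation p = 2.91e-03, adjusted 3.88e-03), a difference that astrocytes, at 5.98% ± 0.47, did not share with microglia. These tests too exchanged single libraries. Over cell type means each of these 3 gave p = 0.267 by the exact test.

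**Figure D3:**
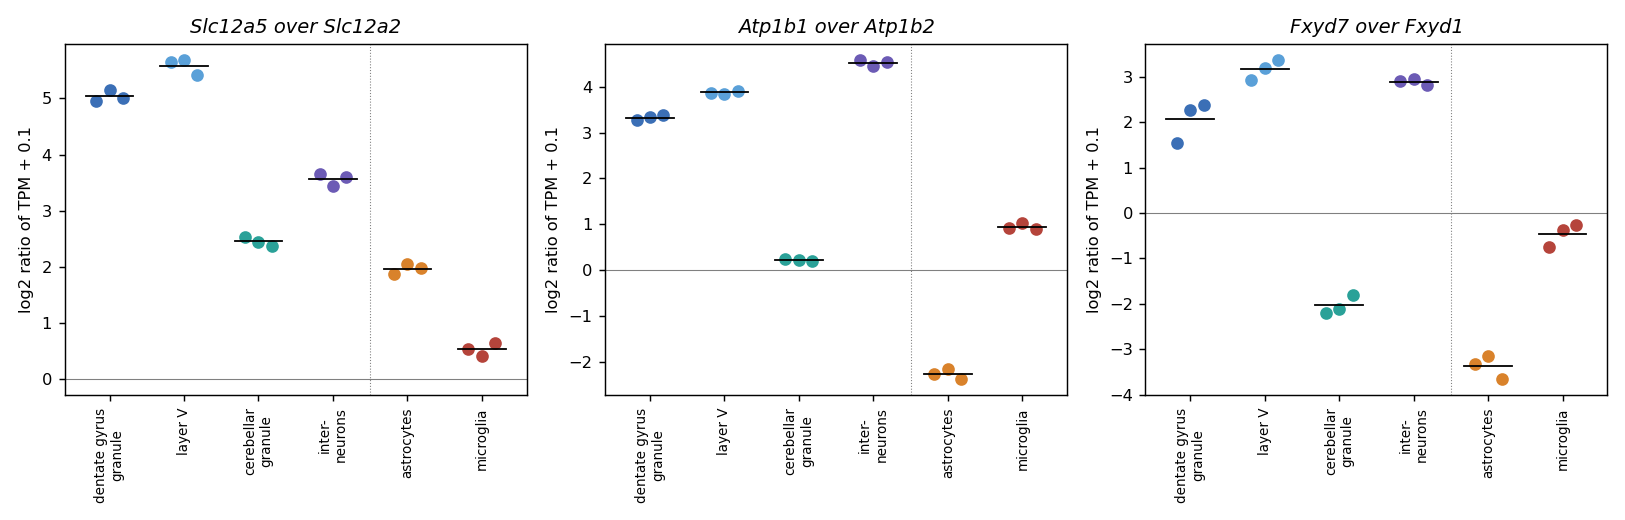
Log2 ratio of 2 genes within each of the 18 libraries (TPM with 0.1 added), with the mean of 3 libraries as a bar and neurons left of the dotted line. Slc12a5 over Slc12a2 is higher in each neuronal library than in any glial one, while cerebellar granule cells lie between or beside the glial types for Atp1b1 over Atp1b2 and Fxyd7 over Fxyd1.

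Glia were set against neurons as the mean of 2 glial types against the mean of 4 neuron types on the log2 scale of counts. The SE and p-values of this contrast, here and below, rest on the spread between libraries within a type. They do not measure the spread between cell types. Atp1b1 and Slc12a5 were higher in neurons, with log2 fold changes of -3.20 ± 0.04 (SE; adjusted p = 4.05e-21 by edgeR) and -2.69 ± 0.03 (adjusted p = 4.38e-21). Fxyd1, at 4.10 ± 0.12 (adjusted p = 4.58e-16), Atp1b3, at 1.28 ± 0.03 (adjusted p = 4.41e-18), Atp1b2, at 0.68 ± 0.03 (adjusted p = 1.46e-12), and Slc12a2, at 0.49 ± 0.05 (adjusted p = 5.46e-08), were higher in glia. Fxyd7 did not pass the test, at 0.15 ± 0.16 (adjusted p = 0.364). So 6 of the 7 genes were called, where 83.3% of all genes tested were called, 4 of them higher in glia against a background of 46.8% and 2 higher in neurons against 36.4%. At a change of at least 2-fold, 2 genes were higher in glia and 2 in neurons, against backgrounds of 30.3% and 15.9%. The median log2 fold change of the 7 was 0.49, beside 0.18 over all genes tested.

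The size of these differences depended on which cell types entered. Atp1b2 was 33.0-fold higher in astrocytes than in microglia by counts, and Slc12a2 and Fxyd7 had a glial TPM mean below the neuronal one (16.2 against 18.4 TPM, and 38.5 against 116 TPM) although their mean log2 counts were higher in glia. Within batch 1, which held no microglia and no interneurons, the log2 fold change of Atp1b1 was -1.89, that of Atp1b2 2.98 and that of Fxyd1 6.06. Slc12a2 no longer passed there (0.09, adjusted p = 0.172 by edgeR) and Fxyd7 did (0.78, adjusted p = 5.58e-03). By mean Fxyd7 was at 48.0 TPM in astrocytes, below layer V neurons at 337 TPM and dentate gyrus granule cells at 60.3 TPM. It was above cerebellar granule cells at 2.04 TPM. Within batch 2, where each of the other types had 1 library, Atp1b1 was at -3.23, Atp1b2 at 0.59, Fxyd1 at 3.87, Slc12a2 at 0.34 and Fxyd7 at 0.05. In counts scaled by library size the groups did not overlap for 3 genes. Fxyd1 lay higher in every glial library than in any neuronal one, as did 12.7% of all genes, and Atp1b1 and Slc12a5 higher in every neuronal library, as did 11.3%.

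Each of the 7 genes differed among the 4 neuron types (adjusted p at most 3.63e-06 by edgeR), where 88.3% of all genes did. Of 105 comparisons of a gene between 2 cell types, 97 passed, among them 29 of the 35 between neighbours in the order of TPM. The 8 that did not were those of Fxyd1 and Fxyd7 given above, with 3 each, and that of layer V neurons with interneurons for Atp1b2 and for Slc12a5. The background of these counts is high. For dentate gyrus granule cells 63.4% of all genes were called against layer V neurons, 73.9% against cerebellar granule cells, 63.9% against interneurons, 74.2% against astrocytes and 79.8% against microglia. For layer V neurons the shares were 76.1% against cerebellar granule cells, 60.7% against interneurons, 77.2% against astrocytes and 83.2% against microglia. For cerebellar granule cells they were 75.2% against interneurons, 82.7% against astrocytes and 85.5% against microglia, for interneurons 73.2% against astrocytes and 80.8% against microglia, and for astrocytes against microglia 76.1%.

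Levels of the neuronal genes in glia were set beside those of neuronal markers, since the glial libraries held some neuronal mRNA. In astrocytes the 5 neuronal markers (Rbfox3, Snap25, Syt1, Stmn2 and Eno2) were at 10.1% to 16.7% of their mean over the 4 neuron types, with a median of 12.1%, while Slc12a5 was at 17.0% and Atp1b1 at 19.1%. In microglia the markers were at 3.85% to 11.4%, with a median of 6.7%, while Slc12a5 was at 14.8% and Atp1b1 at 5.72%. Atp1b1 in microglia thus lay within the range of the neuronal markers, and Slc12a5 summed over its transcripts lay above it in both glial types. Its main coding transcript alone, described below, was at 15.2% of its neuronal mean in astrocytes and 8.82% in microglia. These 2 values fall in the range of the markers, but the markers were summed over all their transcripts, so the measures are unlike. Astrocyte markers in microglia were at 1.58% to 7.32% of their astrocyte level over 5 genes, with a median of 2.75%, beside 3.23% for Atp1b2 and 7.98% for Fxyd1. In layer V neurons they were at 0.29% to 7.92%, with a median of 0.34%, beside 5.91% for Atp1b2 and 7.63% for Fxyd1. That Fxyd1 value is summed over transcripts, described below, whose make-up differed between layer V neurons and astrocytes. Transcripts with an upstream 5′ end were at 2.72 TPM by mean in layer V neurons and 462 TPM in astrocytes. Fxyd1-211 was at 28.6 TPM by mean in layer V neurons and 20.3 TPM in astrocytes. The part of RNA from other cells in all these levels was not tested.

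The deposited values are per transcript. Reads that fit several overlapping transcripts are divided among them by estimation, and the shares below were not tested. By these estimates the same gene level could come from different transcripts. Slc12a5 has 2 annotated starts that lie 7142 bases apart, and the transcripts were grouped by which of them they begin near, within 500 bases. In cerebellar granule cells 95.8% ± 0.8 of Slc12a5 TPM came from the 4 transcripts of the downstream start, in dentate gyrus granule cells 92.5% ± 1.8 and in interneurons 81.5% ± 2.4 (SD, n = 3). The 4 transcripts of the upstream start were at 15.8% ± 0.5 in interneurons, above the 3.76% to 6.08% of the other neuron types, with Slc12a5-207 alone at 30.2, 29.2 and 30.8 TPM in interneurons and at most 13.5 TPM in any other library. The 250 bases upstream of each RefSeq start are shown because the estimated shares of the 2 groups of transcripts differed between neuron types. The use of the starts themselves was not measured. Capitals mark the CCAAT box (CCAAT), the GC box (GGGCGG) and the E-box (CACGTG), each searched on both strands, and both windows are from RefSeq on GRCm38.p6, plus strand.
Slc12a5 upstream start, chr2:164960596-164960845: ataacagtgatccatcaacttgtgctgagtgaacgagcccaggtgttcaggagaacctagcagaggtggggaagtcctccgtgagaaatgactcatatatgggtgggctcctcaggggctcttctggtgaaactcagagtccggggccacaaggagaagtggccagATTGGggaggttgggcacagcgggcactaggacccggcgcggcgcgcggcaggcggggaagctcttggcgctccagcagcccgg
Slc12a5 downstream start, chr2:164967738-164967987: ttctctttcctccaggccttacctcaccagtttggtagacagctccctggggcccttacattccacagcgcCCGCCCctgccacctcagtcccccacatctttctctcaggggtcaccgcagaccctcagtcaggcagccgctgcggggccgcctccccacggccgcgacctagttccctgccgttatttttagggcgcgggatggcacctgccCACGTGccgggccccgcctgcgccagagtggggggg

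The window before the upstream start held 1 CCAAT box, and that before the downstream start held 1 GC box and 1 E-box. Neither held the letters TATAAA. Over 32851 promoter windows of the same length, 33.8% held CCAAT, 32.7% GGGCGG, 12.4% TATAAA and 6.02% CACGTG on either strand. The windows were 61.2% and 67.2% G or C, beside a median of 52.4% over all windows. Matches are descriptions of the letters and not of factor binding.

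The remaining Slc12a5 TPM came from 2 transcripts that begin inside the gene and are annotated as retained introns. Slc12a5-205, which spans the last exons, had 60.0, 59.0 and 47.8 TPM in layer V neurons, or 27.9% ± 3.5 of the gene. It was at 7.77, 7.74 and 7.46 TPM in microglia, 23.4% ± 0.9, and at 4.79, 4.29 and 3.02 TPM in astrocytes, 10.6% ± 1.3. In dentate gyrus and cerebellar granule cells it was under 1% and in interneurons at 0.47% to 4.00% of the gene. The 3 types with a high share were those dissected from cortex. Slc12a5-201 alone, the main coding transcript, was at 231 ± 13 TPM in cerebellar granule cells and 211 ± 18 TPM in those of the dentate gyrus. Interneurons had 173 ± 7 and layer V neurons 131 ± 3 TPM (SD, n = 3), a wider order among neurons than that of the gene as a whole. These values leave out the transcripts of the upstream start as well as the internal ones. Those of the upstream start held 33.7 ± 0.8 TPM in interneurons and 9.22 to 13.7 TPM by mean in the other neuron types. In glia Slc12a5-201 was at 28.3 ± 2.6 TPM in astrocytes and 16.4 ± 1.1 TPM in microglia.

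Fxyd1 showed the larger contrast. Astrocytes drew 93.1% ± 2.6 of their Fxyd1 TPM from the 13 transcripts with a 5′ end within 3000 bases of that of the gene, and Fxyd1-212 alone had 342, 312 and 325 TPM in them. In layer V neurons these transcripts made up 7.33% ± 1.57, and most of the level came from Fxyd1-211, a coding transcript with 4 exons against the 8 of Fxyd1-212, with 39.3, 23.1 and 23.5 TPM. Cerebellar granule cells had 20.4% ± 5.9 from the upstream class, dentate gyrus granule cells 33.6% ± 13.99, interneurons 64.5% ± 11.2 and microglia 58.8% ± 13.4 (SD, n = 3). Summed over the upstream class, layer V neurons had 2.72 ± 0.31 TPM and astrocytes 462 ± 31 TPM. Without Fxyd1-211, a setting added once its shares had been seen, the log2 fold change of Fxyd1 between glia and neurons was 5.06. Fxyd7 kept much the same split between its 2 transcripts, with Fxyd7-201 at 67.5% to 73.3% by mean in the 5 types other than cerebellar granule cells. Slc12a2 came almost wholly from 1 transcript, Slc12a2-201, with 97.3% to 99.8% by mean.

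**Figure D4:**
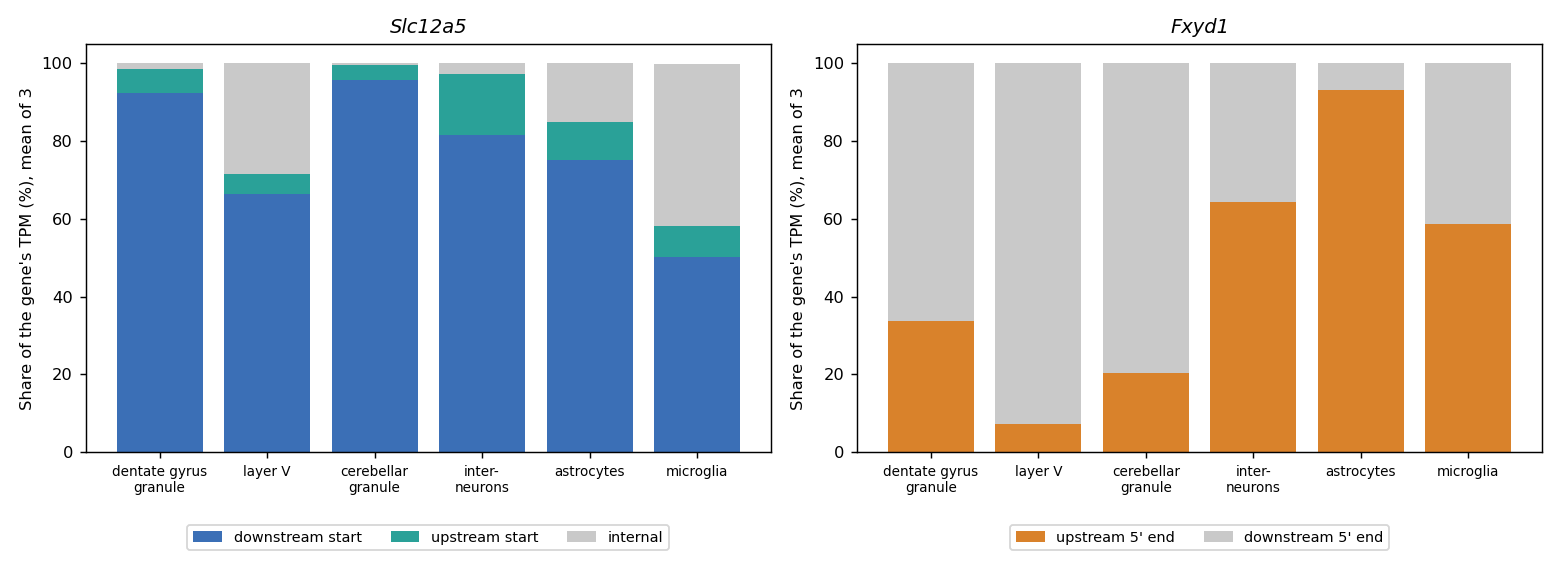
Mean share of a gene's TPM (%, 3 libraries per type) by class of transcript, for Slc12a5 by start and for Fxyd1 by 5′ end. Internal transcripts of Slc12a5 reach 28.3% in layer V neurons and 41.8% in microglia, and Fxyd1 comes from upstream transcripts for 93.1% in astrocytes and 7.33% in layer V neurons.

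The pattern of each gene over the 18 libraries was compared with 12346 tested genes whose mean reached 10 TPM in a type, by Pearson's r of log2 counts scaled by library size. The values are given as a description, since libraries of a type share their pattern. Atp1b1 was most like Bbs4 (r = 0.996) and Nceh1 (0.993), Atp1b2 like Ephb1 (0.980) and Ckap5 (0.972), and Atp1b3 like Dynlt1b (0.991) and Nudt22 (0.987). Fxyd1 was most like Lgi4 (0.996) and Aldh1a1 (0.987), and Fxyd7 like Stx1a (0.992) and Doc2a (0.985). Slc12a2 was most like Foxn3 (0.985) and Uhrf1bp1 (0.982), and Slc12a5 like Dusp8 (0.996) and Tbc1d22b (0.996). Lgi4 lies next to Fxyd1 on the other strand of chromosome 7, 2142 bases away, and averaged 102 TPM in astrocytes and at most 8.01 TPM elsewhere. Among the 7 genes themselves the highest r was that of Atp1b1 with Slc12a5, at 0.93, and the lowest that of Fxyd7 with Slc12a2, at -0.87.

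The other genes of these pathways were taken from a list of 33, of which 30 were tested. Of the 30, 13 were higher in glia, 15 higher in neurons and 2, Fxyd2 and Lrrc8e, did not pass, with a median log2 fold change of 0.04. Over all genes tested 46.8% were higher in glia and 36.4% higher in neurons, so the 28 genes called of 30 stood beside a background of 83.3%. Atp1b4, Fxyd4 and Slc12a1 were too low to test and reached at most 0.15 TPM in any library. Among neuron types 29 of the 30 differed, beside 88.3% of all genes.

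The relatives of the 7 genes, other beta, FXYD and Slc12a genes, had 6 of 10 higher in glia and 3 higher in neurons, with a median log2 fold change of 1.79. Slc12a4, which encodes KCC1, was at 67.7 ± 3.2 TPM in astrocytes and 15.97 ± 1.1 TPM in microglia and at most 3.05 TPM by mean in neurons, a log2 fold change of 5.18 ± 0.06 (SE; adjusted p = 2.69e-21 by edgeR). Slc12a7, which encodes KCC4, had a log2 fold change of 4.15 ± 0.08 (SE) and was highest in microglia at 6.95 ± 1.32 TPM (SD, n = 3). It also reached 3.31 ± 0.54 TPM in dentate gyrus granule cells, beside 3.14 ± 0.58 TPM in astrocytes. Slc12a9 was at 35.1 and 38.8 TPM by mean in astrocytes and microglia and between 3.57 and 7.42 TPM in neurons (log2 fold change 2.98). Fxyd5, which lies 31 bases from Fxyd7 on chromosome 7, was highest in microglia at 56.1 ± 10.7 TPM, with a log2 fold change of 3.90 ± 0.17. The genes of the potassium-coupled chloride exporters KCC1 and KCC4 were thus higher in glia and that of KCC2 higher in neurons.

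All 11 kinases and partners passed, beside 83.3% of all genes, 4 higher in glia and 7 higher in neurons, with a median log2 fold change of -0.97. WNK kinases act through SPAK and OSR1 to switch NKCC1 on and KCC2 off. Wnk1 was higher in glia (2.27 ± 0.04, SE) and highest in microglia at 404 ± 18 TPM (SD, n = 3). Nkain4, which encodes a protein that binds the pump's beta subunit, was also higher in glia (2.20 ± 0.04) but was at 280 ± 15 TPM in astrocytes and 9.26 ± 0.91 TPM in microglia, the latter below the neuronal mean of 14.7 TPM. Neto2, which encodes an auxiliary protein of KCC2 and of kainate receptors, was higher in neurons (-2.11 ± 0.07), at 101 ± 5 TPM in cerebellar granule cells and 5.38 ± 1.05 TPM in dentate gyrus granule cells. Nkain3 was higher in neurons (-2.50 ± 0.18) at low levels, 5.03 ± 0.48 TPM at most by mean. Stk39, which encodes SPAK, was 4.06-fold higher in neurons while Oxsr1, which encodes OSR1, was 1.39-fold higher in glia.

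Among 9 genes of other chloride pathways 3 were higher in glia and 5 higher in neurons, with a median log2 fold change of -0.13. Slc4a10, a bicarbonate transporter of neurons, was at 77.1 to 126 TPM by mean in neurons and 22.9 and 14.3 TPM in astrocytes and microglia (-2.53 ± 0.07, SE). Slc4a8, which encodes a sodium-driven exchanger of chloride for bicarbonate, was higher in neurons by the same test (-1.87 ± 0.04). The volume-regulated anion channel genes moved apart, with Lrrc8b higher in neurons (-1.91 ± 0.06) and Lrrc8a, its obligatory subunit, higher in glia (0.91 ± 0.04; adjusted p = 8e-13 by edgeR), although interneurons, at 46.1 ± 0.9 TPM, were beside astrocytes at 48.8 ± 2.2 TPM (SD, n = 3).

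**Figure D5:**
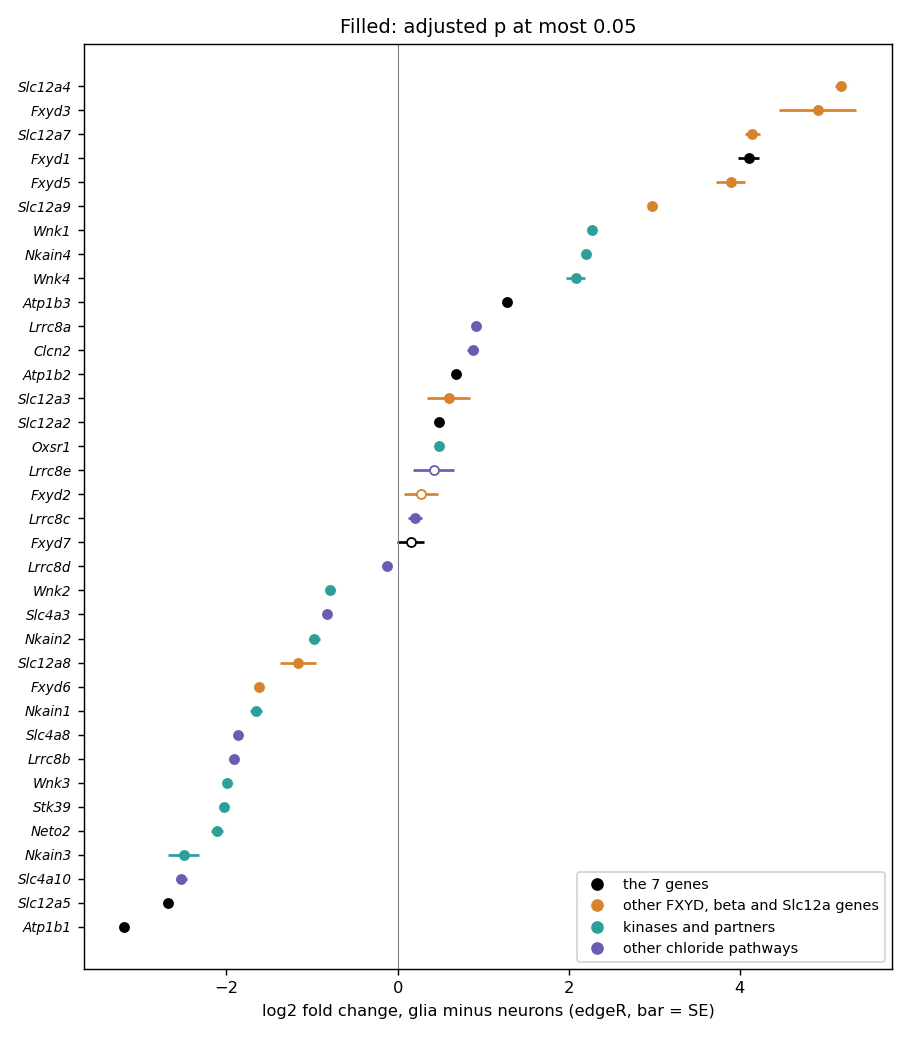
Log2 fold change between glia and neurons with its SE for the 7 genes (black) and 29 of the 30 tested genes of the same pathways, positive where higher in glia; open points did not pass at an adjusted p of 0.05. Atp1b1 and Slc12a5 are the lowest of those drawn and Slc12a4 the highest.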

How the data were processed

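Ribosome-bound polyadenylated RNA of 22 libraries was analysed, of which 18 were used, 1 for each of 3 replicates of 6 cell types (batch 1 where a replicate was sequenced in both batches). The authors trimmed reads with cutadapt 3.5, pseudo-aligned them with kallisto 0.46.2 to GENCODE M24 transcripts and deposited estimated counts, which are not normalized, and TPM, which kallisto scales by transcript length to the same total in each library. Values were summed over the transcripts of a gene symbol and estimated counts rounded. The depth was 38270477 to 71440915 counts per library (median 54631726).

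Genes were filtered with filterByExpr, scaled by TMM and tested with edgeR 4.0.16 (quasi-likelihood F-test, 1 coefficient per cell type, Benjamini-Hochberg adjustment, threshold 0.05) in R 4.3.3. The fit was tested on simulated data. Ratios within a library used log2(TPM + 0.1) and exact two-sided permutation tests (scipy 1.17.1). The methods call the replicates biological. Coordinates are from GENCODE M21 on GRCm38, whose identifiers of the 7 genes and of their 43 transcripts match the index, and promoter windows from RefSeq, where 4 of the 7 genes had an entry. Atp1b2, Fxyd7 and Slc12a2 were not listed. 1 companion gene is counted but not reported by name here.

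The genes and lists were chosen with earlier results of these data known. Named are all 7 genes, for each of 3 lists of companion genes the 4 largest log2 fold changes among those that passed with a mean of at least 5 TPM in a type, and the 2 genes most correlated with each of the 7. Stk39 and Oxsr1 were named after their values were seen, as were the companion genes that did not pass or were not tested and Nme7. Alternatives were DESeq2 1.42.0 (its size factors or its test), no count filter, the other batch, each batch alone, batch, sex or replicate as a term, protein_coding transcripts alone, limma 3.58.1 on log2(TPM + 1), a pseudocount of 1 TPM and leaving out each library. Leaving out transcript Fxyd1-211 was added after seeing the data.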

Additional observations from a re-analysis of the deposited data

How the results depend on the processing

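Of 175 values recomputed under the alternatives other than leaving out a library, 172 kept their direction and their side of the threshold (counts stayed within 1.5 times). The exceptions concerned Fxyd7 and Slc12a2 between glia and neurons. The log2 fold change of Fxyd7 turned from 0.15 to -0.19 with limma on log2(TPM + 1) (adjusted p = 0.291), and passed within batch 1, at 0.78 (edgeR adjusted p = 5.58e-03). That of Slc12a2 fell from 0.49 to 0.09 within batch 1 and did not pass there (edgeR adjusted p = 0.172). Within batch 1 there were no microglia or interneurons. Leaving out each of the 18 libraries in turn gave 306 values, all of which kept their direction and side, with counts again within 1.5 times (11 to 13 companion genes higher in glia): 4 genes stayed higher in glia and 2 in neurons, the log2 fold change of Fxyd7 ran from 0.03 to 0.20, and the difference in log2 Slc12a5 over Slc12a2 between glia and neurons ran from -3.08 to -2.75. Without astrocyte replicate 1, which held choroid plexus markers, no call of the 7 genes between glia and neurons changed.

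Across the alternatives 95 to 98 of the 105 pairs passed, and the log2 fold change ranged from 3.26 to 6.06 for Fxyd1, from 0.48 to 2.98 for Atp1b2 and from -3.24 to -1.89 for Atp1b1, each farthest from the reported value within batch 1. Without transcript Fxyd1-211 the difference in log2 Fxyd7 over Fxyd1 was -4.75 in place of -3.44. Scaling by DESeq2 size factors moved the median log2 fold change of all genes by 0.03. Same-numbered libraries of different types deviated together weakly at most (15 of 45 pairs with r over 0.1, median 0.08, highest 0.19). Libraries with different numbers were not compared, so whether the numbers pair them cannot be told from this. A fit with the replicate number as a block again gave 4 genes higher in glia, 2 higher in neurons and 97 pairs. 1 library labelled male in layer V neurons, used only in the batch alternatives, lacked a Y-linked transcript that the other male libraries held. Depth limits Fxyd1 and Fxyd7 in cerebellar granule cells, with as few as 42 and 25 estimated counts in a library.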
